A study of Mus musculus with 14 samples.

Results

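A small set of cells carried 2 deposited labels that point to different hippocampal fields: the class DG_ExN, which names excitatory neurons of the dentate gyrus, and Leiden cluster 1, which is otherwise made up mainly of CA1_ExN cells. The rule took every cell with that class and that cluster number, and it found 96 of the 13602 cells, which were 96 of 8561 DG_ExN cells and 96 of 3257 cluster 1 cells. They are called cluster 1 DG_ExN cells here and are compared with the 6000 DG_ExN cells of cluster 0 and the 2973 CA1_ExN cells of cluster 1. Their markers were those of dentate rather than CA1 neurons, as their class but not their cluster would have it. The class may itself have been assigned from these genes, so the markers are no independent support for it. The 96 cells nearly lacked the CA1 markers Adgrl2, Gm2115 and Fibcd1, held the dentate marker Grm2 at a level below that of cluster 0 DG_ExN cells, and lay among dentate cells. Their pooled levels of immediate early genes, among them Fos, Fosb, Arc and Egr1, were far above those of other dentate cells and also above those of CA1_ExN cells. These levels were carried by 55 of the 96 cells, in which early genes gave 5% or more of the counts. The other 41 had low levels by that choice, with Fos at 6.95 counts per 10000, against 4.65 in cluster 0 DG_ExN cells. Most early genes were still higher in the 41 cells than in cluster 0 DG_ExN cells, such as Arc at 31.3 against 7.91. Bdnf, at 19.1 against 41.2, and Egr2 were lower.

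Granule neurons are the principal excitatory cells of the dentate gyrus and send mossy fibres to CA3, whereas CA1 pyramidal neurons form the output field of the hippocampus. Granule neurons fire sparsely, so at a given moment few of them hold transcripts of immediate early genes. These genes, such as Fos, Arc and the Egr family, are transcribed within minutes of strong synaptic activity without new protein synthesis and are widely used as marks of recently active neurons.

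Single transcripts were counted by MERFISH, an imaging method in which each gene is read from a barcode of repeated hybridizations, on a MERSCOPE instrument in sagittal cryosections of mouse hemibrains that had been fresh-frozen. Cells had been outlined with a custom Cellpose pipeline. The samples were Ir-Rz (irradiated, given RZ, an agent the labels name by this abbreviation alone, n = 2), Ir-Veh (irradiated, given vehicle, n = 4), Ctl-Rz (unirradiated, given RZ, n = 3) and Ctl-Veh (unirradiated, given vehicle, n = 5). Samples are named by group and by the number of their imaging run, and each of the 7 runs held 2 samples. The sources used here give neither genotype, strain, sex nor age, and not how classes and clusters were assigned. The 14 samples held 137786 to 434127 counts of the 255 genes in the table, with a median of 186 to 337.5 counts per cell, and no cell ID occurred in more than 1 sample. The cluster 1 DG_ExN cells numbered 2 to 16 per sample and gave 606 to 3377 counts per sample. Levels below are counts per 10000 counts of the 255 genes, pooled over samples unless a sample range is given. Classes and clusters may have been made from these genes, so gene levels are described with no test.

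The markers chosen for these cells stood nearer to dentate than to CA1 levels, which the class label in the rule may itself have fixed. Adgrl2, which encodes the adhesion receptor latrophilin 2, stood at 2.60 in cluster 1 DG_ExN cells, 3.26 in cluster 0 DG_ExN cells and 94.4 in CA1_ExN cells. Its sample range was 0 to 8.97 in cluster 1 DG_ExN cells, 1.60 to 5.35 in cluster 0 DG_ExN cells and 63.8 to 125.1 in CA1_ExN cells, so that the DG_ExN populations overlapped and both lay far below CA1. Gm2115, another CA1 marker, had a level of 4.77 in cluster 1 DG_ExN cells, 2.25 in cluster 0 DG_ExN cells and 150.2 in CA1_ExN cells. For Fibcd1, which encodes a membrane protein with a fibrinogen-like domain, the level was 7.37 in cluster 1 DG_ExN cells, 14.1 in cluster 0 DG_ExN cells and 171 in CA1_ExN cells. The 3 CA1 markers together had a sample median of 9.70 in cluster 1 DG_ExN cells, 18.5 in cluster 0 DG_ExN cells and 416 in CA1_ExN cells. In the 96 cells, Adgrl2 rested on 6 counts, Gm2115 on 11 and Fibcd1 on 17.

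Grm2, the presynaptic metabotropic glutamate receptor typical of granule neurons, had a level of 83.7 in cluster 1 DG_ExN cells, against 145 in cluster 0 DG_ExN cells and 2.82 in CA1_ExN cells. Its sample range was 29.8 to 160 in cluster 1 DG_ExN cells, 75.7 to 218 in cluster 0 DG_ExN cells and 1.68 to 4.12 in CA1_ExN cells. Cluster 1 DG_ExN cells were below cluster 0 DG_ExN cells in 11 of the 12 samples with 3 or more of them, and above CA1_ExN cells in 12 of 12. Gad1, the GABA-synthesizing enzyme that granule neurons are known to hold at a low level, stood at 59.8 in cluster 1 DG_ExN cells, 49.8 in cluster 0 DG_ExN cells and 3.58 in CA1_ExN cells. The dentate marker list, of which 4 of 6 genes were in the table, summed to 56.0 to 297 per sample in cluster 1 DG_ExN cells, 144 to 283 in cluster 0 DG_ExN cells and 7.48 to 13.6 in CA1_ExN cells. Of these 4 genes, Gad1 alone was higher in cluster 1 than in cluster 0 DG_ExN cells, and all 4 were higher than in CA1_ExN cells. Adarb2, an RNA-binding relative of the editing enzymes, was at 3.90 in cluster 1 DG_ExN cells, from 9 counts, 13.2 in cluster 0 DG_ExN cells and 1.24 in CA1_ExN cells, and was below cluster 0 DG_ExN cells in 10 of 12 samples. Calb1, the calcium-binding protein calbindin, was at 1.73 in cluster 1 DG_ExN cells, from 4 counts, 4.57 in cluster 0 DG_ExN cells and 1.45 in CA1_ExN cells. Grm2 was detected in 51.9% of cluster 1 DG_ExN cells (exact 95% interval 40.4 to 63.3), 73.9% of cluster 0 DG_ExN cells and 2.87% of CA1_ExN cells after each cell was thinned to 100 counts. Cells below 100 counts were left out there, which removed 17 cluster 1 DG_ExN cells, 51 cluster 0 DG_ExN cells and 85 CA1_ExN cells. Without thinning the share was 71.9% of cluster 1 DG_ExN cells, 93.5% of cluster 0 DG_ExN cells and 10.7% of CA1_ExN cells.

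Markers of other cell types overlapped between the DG_ExN populations in their sample ranges, which are wide where a sample held few of the cells. The summed level of 9 inhibitory neuron markers, Gad1 among them, ran from 36.1 to 220 over samples in cluster 1 DG_ExN cells, 42.7 to 99.6 in cluster 0 DG_ExN cells and 16.6 to 45.6 in CA1_ExN cells, and 7 of the 9 were higher in cluster 1 than in cluster 0 DG_ExN cells. For 5 astrocyte markers the range was 8.88 to 68.9 in cluster 1 DG_ExN cells and 19.3 to 38.7 in cluster 0 DG_ExN cells, and 3 of 5 were higher in the cells of cluster 1. The 5 microglia markers summed to 0 to 18.3 in cluster 1 DG_ExN cells, where 1 of them was at 0, and 5.69 to 11.5 in cluster 0 DG_ExN cells. Both CA3 markers in the table, Iyd and Cckbr, together gave 0 to 49.5 in cluster 1 DG_ExN cells and 5.45 to 14.6 in cluster 0 DG_ExN cells. Cckbr, the receptor of the peptides cholecystokinin and gastrin, was the higher of the pair relative to cluster 0 DG_ExN cells, with 21 counts in 15 of the 96 cells. Endothelial and mural markers summed to 10.8 in cluster 1 DG_ExN cells and 11.005 in cluster 0 DG_ExN cells, and oligodendrocyte markers to 3.47 in cluster 1 DG_ExN cells and 4.17 in cluster 0 DG_ExN cells. The part of such transcripts in the results below was not tested.

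**Figure D1:**
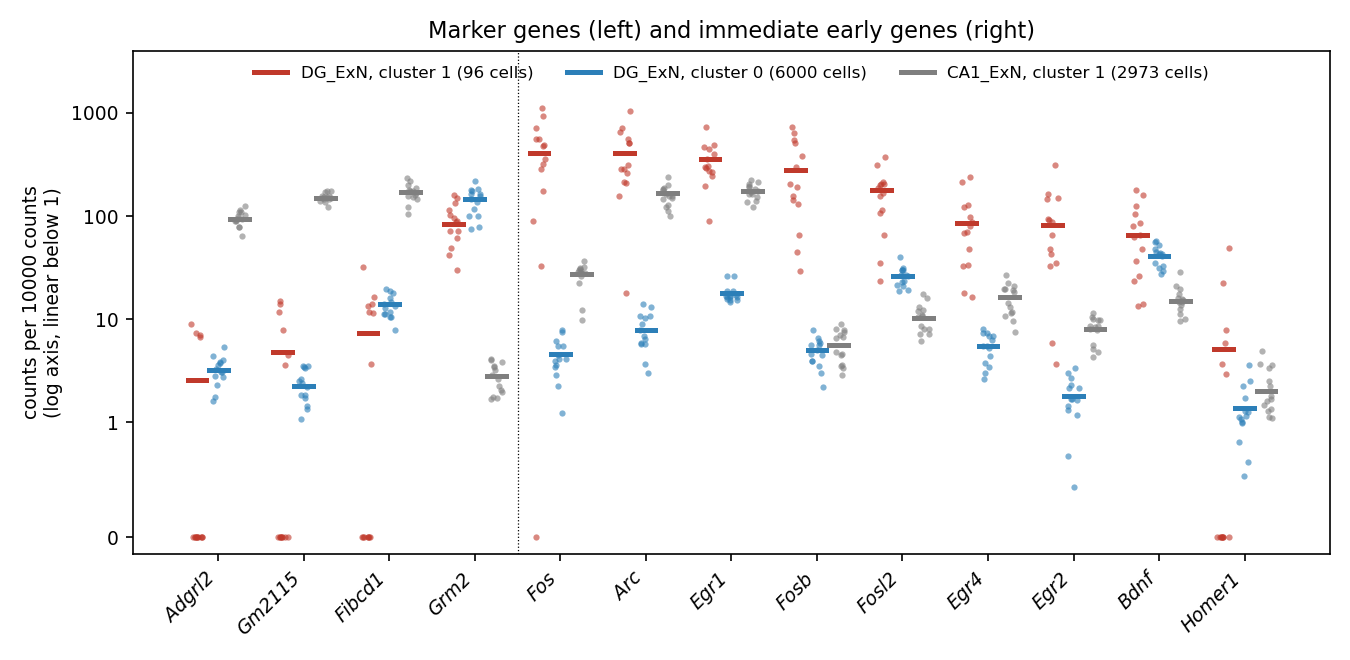
Counts per 10000 counts of the 4 marker genes and the 9 immediate early genes in the table (log axis, linear below 1). Points are the 14 samples and bars the levels pooled over samples, for cluster 1 DG_ExN cells (left of each trio), cluster 0 DG_ExN cells and CA1_ExN cells. By pooled level the cluster 1 DG_ExN cells sit with cluster 0 DG_ExN cells for the CA1 markers and above both populations for Fos, Fosb, Egr2 and Egr4. In some samples Fos, Egr2 or Egr4 was below CA1_ExN cells, such as Fos in Ir-Veh 9 at 0 against 31.4.

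The cells lay among other dentate cells. Among the 20 nearest cells of the same section, 0 of the 96 cluster 1 DG_ExN cells had any CA1_ExN neighbour, and 92 of 96 had DG_ExN neighbours alone. All 96 lay nearer to a cluster 0 DG_ExN cell than to a cluster 1 CA1_ExN cell. Their median distance to the nearest cluster 0 DG_ExN cell was 11.3, against 10.04 between cluster 0 DG_ExN cells, in the deposited units of x and y, which are not stated. The median distance to the nearest cluster 1 CA1_ExN cell was 548 from cluster 1 DG_ExN cells and 584 from cluster 0 DG_ExN cells. The mean CA1_ExN share of neighbours was 0% in cluster 1 DG_ExN cells in each of the 12 samples with 3 or more of them, 0% in cluster 0 DG_ExN cells, and 99.1% to 99.9% in CA1_ExN cells. Since 0 of 6000 cluster 0 DG_ExN cells had a CA1_ExN neighbour and 0 of 2973 CA1_ExN cells a DG_ExN neighbour, the classes were fully separate in space. The class label in the rule thus fixes this difference, no test of it is given, and whether position had been used to assign classes is not known. The median distance to the nearest other cluster 1 DG_ExN cell was 74.3 from cluster 1 DG_ExN cells, against 121 from cluster 0 DG_ExN cells to the nearest of them, and 27 of the 96 had another one within 50 units. Whether the cells lay nearer to each other than chance gives was not tested, and samples with more of them weigh more in the first distance.

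**Figure D2:**
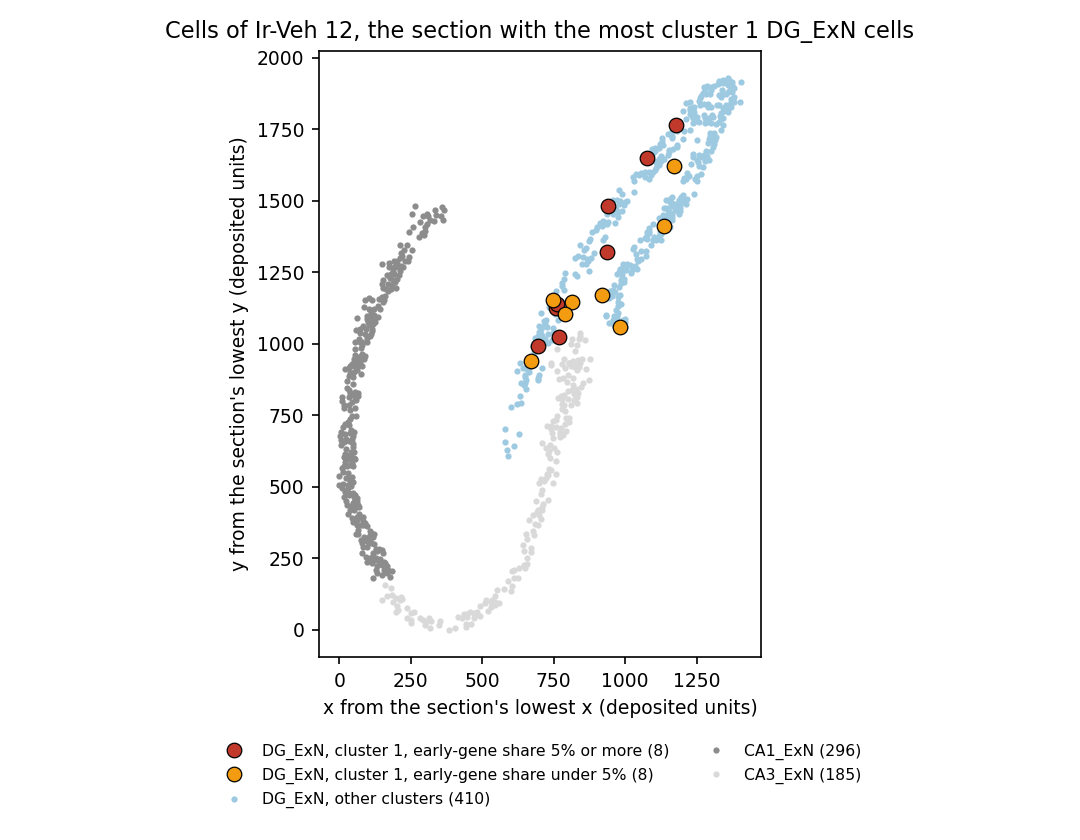
Positions of the cells of Ir-Veh 12, the sample with the most cluster 1 DG_ExN cells (16), with x and y measured from the lowest value in the section in the deposited units. Large points are cluster 1 DG_ExN cells with an immediate early gene share of 5% or more (red) or under 5% (orange), and small points are the other DG_ExN, CA1_ExN and CA3_ExN cells. The 16 cells lie along or next to the dentate cell layer and none lies in the CA1 layer.

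Immediate early genes led the list of genes higher in these cells than in other dentate neurons. Of 100 genes with 0.2 or more counts per cell in cluster 1 or cluster 0 DG_ExN cells, 19 (19%) were at least 2-fold higher in cluster 1 DG_ExN cells and 7 (7%) at least 2-fold lower. With the 9 early genes left out of each cell's total, 3 of those 7 stayed at least 2-fold lower, and the 12 genes outside the early list that were at least 2-fold higher all stayed so. Of the 11 genes of the immediate early list, 9 were in the table and 8 passed this minimum. All 8 were higher in cluster 1 DG_ExN cells, 7 of them at least 2-fold, with a median log2 ratio of 4.91, against -0.15 over the 100 genes. A gene that reached the minimum through cluster 1 DG_ExN cells alone had to be higher there, so its direction is no result. Egr2 and Egr4 were such genes, at 0.048 and 0.145 counts per cell in cluster 0 DG_ExN cells. Outside the early list, Atf3 and Cckbr were among them. Against CA1_ExN cells, 37 of 114 genes (32.5%) were at least 2-fold higher and 16 (14%) at least 2-fold lower, and all 8 immediate early genes were at least 2-fold higher, with a median log2 ratio of 2.86 against 0.19 over the 114. The split against CA1_ExN cells followed the scaling, since CA1_ExN cells held more counts: of genes past 2-fold, 69.8% were higher in cluster 1 DG_ExN cells per 10000 counts, 33.3% in counts per cell and 52.9% in counts per volume. Against cluster 0 DG_ExN cells that share was 73.1% per 10000 counts, 61.5% per cell and 84.6% per volume. The median gene itself shifted to a log2 ratio of -0.60 against CA1_ExN cells and -0.30 against cluster 0 DG_ExN cells in counts per cell, and to -0.20 and 0.071 in counts per volume. The 8 immediate early genes kept their direction against both populations under each of these scalings, and 7 stayed at least 2-fold higher than in cluster 0 DG_ExN cells, while 6 did so against CA1_ExN cells per cell and per volume.

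Fos, the activity-induced partner of Jun proteins in the AP-1 transcription factor, had a level of 408 in cluster 1 DG_ExN cells, against 4.65 in cluster 0 DG_ExN cells (log2 ratio 6.46) and 27.3 in CA1_ExN cells (log2 ratio 3.90). Over samples, Fos ran from 0 through a median of 418 to 1114 in cluster 1 DG_ExN cells, from 1.24 through 4.13 to 7.79 in cluster 0 DG_ExN cells and from 9.86 through 28.4 to 37.0 in CA1_ExN cells. The sample at 0 was Ir-Veh 9, which had 9 of these cells, and in the other 13 samples Fos was above the highest cluster 0 value. Its paralog Fosb stood at 280 in cluster 1 DG_ExN cells, 5.0005 in cluster 0 DG_ExN cells and 5.68 in CA1_ExN cells, with a log2 ratio of 5.81 over cluster 0 DG_ExN cells and 5.62 over CA1_ExN cells. The Fosb sample ranges, 29.7 to 735 in cluster 1 DG_ExN cells, 2.19 to 7.85 in cluster 0 DG_ExN cells and 2.90 to 8.98 in CA1_ExN cells, did not overlap between the first population and the others. Fosl2, a slower member of the same family, was at 180 in cluster 1 DG_ExN cells, 26.5 in cluster 0 DG_ExN cells and 10.4 in CA1_ExN cells, and it was higher in cluster 1 DG_ExN cells in 12 of 12 samples against each. Fosb too was higher in 12 of 12 samples against each population.

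The DNA just before the start of Fos and Fosb, the pair with the highest ratios over cluster 0 DG_ExN cells, is shown because their levels varied together across the 96 cells (Spearman's rho 0.81). The sequences are the 250 bases before the start in RefSeq on GRCm38.p6, in the direction of transcription, with the CRE half-site TGACG or its reverse complement CGTCA, the core bound by CREB and ATF proteins, in capitals.
Fos (chr12:85473640-85473889, plus strand): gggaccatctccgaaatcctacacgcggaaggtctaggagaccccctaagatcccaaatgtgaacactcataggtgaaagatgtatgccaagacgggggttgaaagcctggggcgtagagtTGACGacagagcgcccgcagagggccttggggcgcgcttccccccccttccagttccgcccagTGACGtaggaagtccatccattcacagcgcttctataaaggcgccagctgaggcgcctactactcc
Fosb (chr7:19310046-19310295, minus strand): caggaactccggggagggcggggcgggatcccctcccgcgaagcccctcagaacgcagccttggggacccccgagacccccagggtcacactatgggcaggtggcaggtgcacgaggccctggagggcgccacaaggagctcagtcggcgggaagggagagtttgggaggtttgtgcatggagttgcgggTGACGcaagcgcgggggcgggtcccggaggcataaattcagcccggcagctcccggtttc
The Fos stretch held 2 half-sites, starting 129 and 66 bases before the gene's start, and the Fosb stretch held 1, at 60 bases. A half-site on either strand occurred in 17.8% of all 32851 such 250-base stretches in the table, and the 8-base palindrome TGACGTCA, which contains both half-sites in overlap, in 1.55% of all and in neither stretch shown. Of the 9 immediate early genes in the count table, 7 had entries, and their 18 annotated starts included 8 with a half-site. These starts are not separate observations. Egr2 gave 5, of which those with half-sites shared the same 2 sites, and Bdnf gave 7. A match of letters is a description and does not show that a factor binds there.

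Arc, which encodes a synaptic protein that regulates AMPA receptor uptake, was at 407 in cluster 1 DG_ExN cells, 7.91 in cluster 0 DG_ExN cells and 169 in CA1_ExN cells. Its sample range was 17.8 to 1045 in cluster 1 DG_ExN cells, 3.01 to 14.02 in cluster 0 DG_ExN cells and 99.4 to 240 in CA1_ExN cells. The lowest of the first range, Ir-Veh 9, was above every cluster 0 sample and below every CA1 sample. Egr1, a zinc finger factor of the same early response, was at 359 in cluster 1 DG_ExN cells, 17.9 in cluster 0 DG_ExN cells and 176 in CA1_ExN cells, with sample ranges of 89.02 to 723 in cluster 1 DG_ExN cells, 14.7 to 26.5 in cluster 0 DG_ExN cells and 121 to 225 in CA1_ExN cells. CA1_ExN cells thus held Arc and Egr1 well above cluster 0 DG_ExN cells too, and the 96 cells exceeded CA1_ExN cells in 11 of 12 samples for each. Egr2 was at 81.9 in cluster 1 DG_ExN cells, 1.81 in cluster 0 DG_ExN cells and 7.98 in CA1_ExN cells. Egr4 was at 85.0 in cluster 1 DG_ExN cells, 5.47 in cluster 0 DG_ExN cells and 16.5 in CA1_ExN cells. Both of these Egr factors were above cluster 0 DG_ExN cells in 12 of 12 samples and above CA1_ExN cells in 10 of 12.

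Bdnf, a neurotrophin whose transcription also follows activity, differed less. It stood at 65.9 in cluster 1 DG_ExN cells, 41.2 in cluster 0 DG_ExN cells and 14.9 in CA1_ExN cells, and was higher than in cluster 0 DG_ExN cells in 8 of 12 samples (log2 ratio 0.68). Homer1, a postsynaptic scaffold gene with a short activity-induced form, fell under the minimum of 0.2 counts per cell, with 12 counts in 9 of the 96 cells. Atf3, a stress- and activity-induced factor outside the list and picked after its values were seen, had 42 counts in 12 of the cells, and its level was 18.2 in cluster 1 DG_ExN cells, against 2.84 in cluster 0 DG_ExN cells, with 7 of 12 samples higher.

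Together the 9 early genes made up 18.7% of the pooled counts of cluster 1 DG_ExN cells, 1.12% of those of cluster 0 DG_ExN cells and 4.296% of those of CA1_ExN cells. By sample the share ran from 2.14% through a median of 17.7% to 44.3% in cluster 1 DG_ExN cells, from 0.771% through 1.14% to 1.36% in cluster 0 DG_ExN cells, and from 2.84% through 4.28% to 5.30% in CA1_ExN cells. Cluster 1 DG_ExN cells were above cluster 0 DG_ExN cells in 12 of 12 samples and above CA1_ExN cells in 11 of 12, the exception being Ir-Veh 9 with 2.14%.

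The 96 cells were not alike. In 55 of them (57.3%, exact 95% interval 46.8 to 67.3) the early genes gave 5% or more of a cell's counts, and in 41 they gave less. The same threshold was reached by 70 of 6000 cluster 0 DG_ExN cells (1.17%) and 938 of 2973 CA1_ExN cells (31.6%). At 20% or more stood 29 of the 96 cells, 1 of 6000 cluster 0 DG_ExN cells and 11 of 2973 CA1_ExN cells. Of the 31 DG_ExN cells at 20% or more in the whole series, 29 were in cluster 1. Of the 185 at 5% or more, however, cluster 1 held 55, cluster 0 held 70 and cluster 3 held 54, so most dentate cells past this lower bound were in other clusters. The 5% bound was set with the values known, and 10 of the 55 cells lay between 5% and 10% and 14 of the 41 between 2% and 5%.

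**Figure D3:**
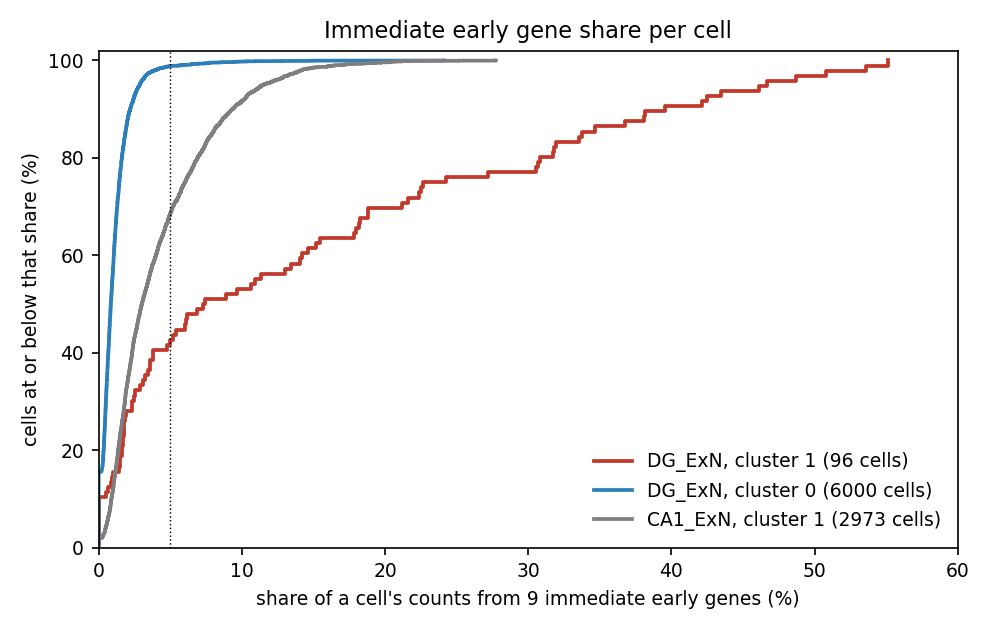
Cumulative share of cells (vertical axis, %) by the percent of a cell's counts that came from 9 immediate early genes, for cluster 1 DG_ExN cells, cluster 0 DG_ExN cells and CA1_ExN cells. The dotted line marks 5%. Of the cluster 1 DG_ExN cells 57.3% lie at or above it, against 1.17% of cluster 0 DG_ExN cells and 31.6% of CA1_ExN cells.

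Across the 96 cells the early genes, as shares of a cell's counts, moved together. Spearman's rho, given as a description over cells that share sections and depth, was 0.84 between Fos and Egr2, 0.81 between Fos and Egr1, 0.81 between Fos and Fosb and 0.79 between Fos and Arc. Bdnf followed less closely, with 0.41 to Fos, and Homer1 hardly, with 0.034. For each cell, the median early gene share was taken over its nearest neighbours, fewer than the 20 used for position. This value had a median of 0.854% around cluster 1 DG_ExN cells, 0.846% around cluster 0 DG_ExN cells and 2.85% around CA1_ExN cells. By it the surroundings of the cells differed little from those of other dentate cells, though a median hides a few neighbours with high shares.

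After thinning to 100 counts, Fos was detected in 55.7% of cluster 1 DG_ExN cells (exact 95% interval 44.1 to 66.9), 3.33% of cluster 0 DG_ExN cells and 16.8% of CA1_ExN cells, and without thinning in 54.2% of cluster 1 DG_ExN cells, 7.68% of cluster 0 DG_ExN cells and 35.5% of CA1_ExN cells. Arc was detected in 64.6% of thinned cluster 1 DG_ExN cells (exact 95% interval 52.99 to 74.999), 5.41% of cluster 0 DG_ExN cells and 66.6% of CA1_ExN cells. Without thinning Arc was detected in 63.5% of cluster 1 DG_ExN cells, 10.8% of cluster 0 DG_ExN cells and 90.8% of CA1_ExN cells, which held more counts. The share of cells with Arc was thus below that of CA1_ExN cells at full depth and within its counting interval after thinning, while the pooled level was higher in cluster 1 DG_ExN cells.

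The 41 cells with a low early gene share had low early gene levels by construction, and they too lacked CA1 markers. Their Fos level was 6.95, from 4 counts, against 541 in the 55 cells with a high share and 4.65 in cluster 0 DG_ExN cells. Arc was at 31.3 in the 41 cells and 7.91 in cluster 0 DG_ExN cells, and Egr1 at 45.2 in the 41 cells and 17.9 in cluster 0 DG_ExN cells. Grm2 was at 103 in the 41 cells, 77.4 in the 55 cells and 145 in cluster 0 DG_ExN cells, and Gad1 at 60.8 in the 41 cells and 59.5 in the 55 cells. With early gene counts left out of the total, Grm2 was at 104 in the 41 cells, 102.3 in the 55 cells and 147 in cluster 0 DG_ExN cells, and Gad1 at 62.0 in the 41 cells, 78.6 in the 55 cells and 50.3 in cluster 0 DG_ExN cells. The CA1 markers gave 2 counts of Adgrl2, 2 of Gm2115 and 7 of Fibcd1 in the 41 cells together. Several genes were higher in the 41 cells than in cluster 0 DG_ExN cells, and those given here were named after their values were seen. Cckbr had the highest ratio of the 4, at 15.6 in the 41 cells, from 9 counts, 6.93 in the 55 cells and 1.26 in cluster 0 DG_ExN cells (log2 ratio 3.63 for the 41 cells). Fam107a, a stress-induced gene of an actin-binding protein, was at 41.7 in the 41 cells, 16.7 in the 55 cells and 8.95 in cluster 0 DG_ExN cells. Col6a1, a collagen VI chain, was at 41.7 in the 41 cells, 4.62 in the 55 cells and 10.9 in cluster 0 DG_ExN cells. Drd1, the D1 dopamine receptor, was at 39.98 in the 41 cells, 18.5 in the 55 cells and 11.6 in cluster 0 DG_ExN cells. Fam107a, Col6a1 and Drd1 rested on 23 or 24 counts each in the 41 cells, and Col6a1 was found in 8 of all 96 cells.

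Cluster 1 DG_ExN cells were smaller than both comparison populations. Their median volume per sample, in deposited units that are not stated, ran from 345 through a median of 529 to 943 over the 12 samples, against 693 through 778 to 816 in cluster 0 DG_ExN cells. It was lower in 11 of 12 samples and higher in Ctl-Veh 8, with a mean within-sample log2 difference of -0.57 ± 0.47 (SD, n = 12), which is a ratio of 0.674 (exact sign-flip permutation test, p = 0.00342, adjusted p = 0.00513 over 6 within-sample tests). Against CA1_ExN cells, at 536 through 790 to 986, the mean log2 difference was -0.56 ± 0.37 (SD, n = 12; exact p = 0.00146, adjusted p = 0.00293), again with 11 of 12 samples lower. The deposited table also holds counts per volume, so volume may have entered the clustering. Independence from the choice of the cells cannot be shown. Pooled over cells, the median volume was 571 in cluster 1 DG_ExN cells and 783 in cluster 0 DG_ExN cells. It was 642 in all 8561 DG_ExN cells of any cluster. The ratio to cluster 0 DG_ExN cells is thus no measure of the difference from dentate cells at large, which was not tested.

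The cells also held fewer counts than the comparison populations. The median count per cell was 131 through 203 to 444 over samples in cluster 1 DG_ExN cells, 187 through 266 to 340 in cluster 0 DG_ExN cells and 254 through 395 to 635 in CA1_ExN cells. Against CA1_ExN cells it was lower in 12 of 12 samples, at a log2 difference of -0.96 ± 0.40 (SD, n = 12; exact permutation p = 0.000488, adjusted p = 0.00146). Against cluster 0 DG_ExN cells it was lower in 8 of 12 samples, at -0.36 ± 0.53 (SD, n = 12; exact permutation p = 0.0410, adjusted p = 0.0492), a call that was lost in 8 of 12 fits with 1 sample left out. Divided by volume, counts were instead higher in cluster 1 than in cluster 0 DG_ExN cells, at a log2 difference of 0.17 (exact permutation p = 0.0107, adjusted p = 0.0129). Pooled over cells, the median was 214.5 counts in cluster 1 DG_ExN cells and 247 in cluster 0 DG_ExN cells. In all 8561 DG_ExN cells of any cluster it was 204, so fewer counts than in dentate cells at large were not seen.

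Size and early gene share went together within the 96 cells. The 55 cells at 5% or more had a median volume of 767, close to the 783 of cluster 0 DG_ExN cells. Their median of 306 counts was above the 247 of cluster 0 DG_ExN cells. The 41 cells below 5% had a median volume of 406 and 135 counts. Cluster 3 DG_ExN cells, another group of dentate cells, had a median volume of 267 and 94 counts. The smaller size of the whole set thus lay mostly with the 41 cells, as a description over pooled cells.

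**Figure D4:**
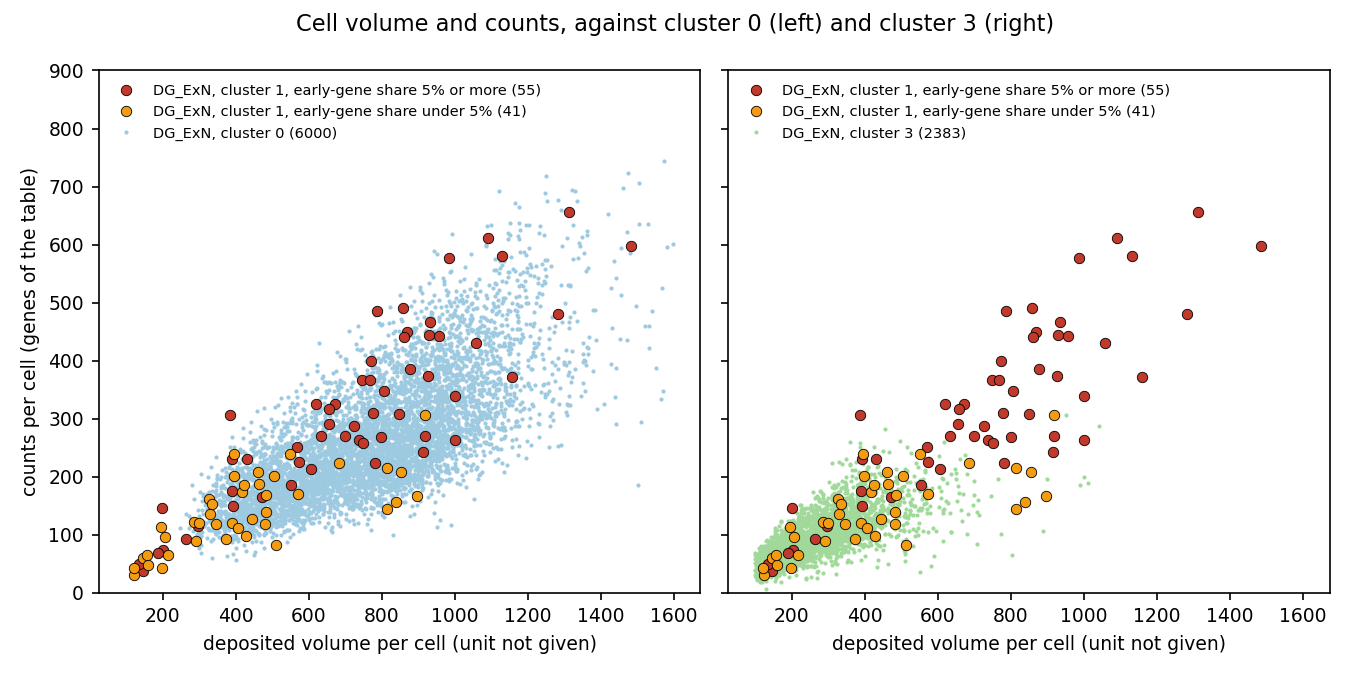
Counts of 255 genes per cell against deposited volume per cell (unit not given). Large points, the same in both panels, are cluster 1 DG_ExN cells with an immediate early gene share of 5% or more (55, red) or under 5% (41, orange), over cluster 0 DG_ExN cells (left) and cluster 3 DG_ExN cells (right). The red points spread over the range of cluster 0 and most orange points lie at smaller volumes, with medians of 767 and 406.

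Apart from the early genes, the cells lay nearer to dentate than to CA1 neurons in their gene levels. The class label in the rule may have fixed this too. Of 54 genes that differed at least 2-fold between CA1_ExN and cluster 0 DG_ExN cells, 36 had a log level in cluster 1 DG_ExN cells nearer to cluster 0 DG_ExN cells. Of the 7 immediate early genes among the 54, 5 lay beyond the CA1 level, and of the 47 other genes 34 were nearer to dentate. Each cell was also described as a mixture of both population profiles, with a weight of 1 for a pure CA1_ExN profile and 0 for a pure cluster 0 DG_ExN profile. The median weight was 0.380 in cluster 1 DG_ExN cells, 1.29e-06 in cluster 0 DG_ExN cells and 0.997 in CA1_ExN cells. With the 9 early genes left out, an alternative added after the data had been seen, it was 0.000127 in cluster 1 DG_ExN cells, and the number of the 96 cells with a weight over 0.5 was 2, against 37 with all genes.

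Of the 20 genes outside the early list that were at least 2-fold higher in CA1_ExN than in cluster 0 DG_ExN cells, 13 were nearer to dentate in the 96 cells and 7 nearer to CA1. Bcan, the proteoglycan brevican, had a level of 6.50 in cluster 1 DG_ExN cells, 7.57 in cluster 0 DG_ExN cells and 80.9 in CA1_ExN cells. Dkk3, a secreted glycoprotein, was at 31.2 in cluster 1 DG_ExN cells, 13.2 in cluster 0 DG_ExN cells and 302 in CA1_ExN cells, and was lower than in CA1_ExN cells in 12 of 12 samples, as were Bcan, the receptor gene Gpr63 and the serotonin receptor gene Htr1a, which had 3 counts. The 7 nearer to CA1, named after their values were seen, were Camk4, Chrm4, Cnr1, Cpne5, Enpp2, Fezf2 and Htr1f. Camk4, a calcium- and calmodulin-dependent kinase, was at 36.8 in cluster 1 DG_ExN cells, 18.1 in cluster 0 DG_ExN cells and 36.7 in CA1_ExN cells. Chrm4, a muscarinic acetylcholine receptor, was at 9.97 in cluster 1 DG_ExN cells, 2.403 in cluster 0 DG_ExN cells and 18.02 in CA1_ExN cells. Cnr1, the cannabinoid receptor CB1, was at 9.97 in cluster 1 DG_ExN cells, 3.17 in cluster 0 DG_ExN cells and 18.6 in CA1_ExN cells. Chrm4 and Cnr1 rested on 23 counts each in the 96 cells. Of the 27 genes outside the early list that were at least 2-fold lower in CA1_ExN than in cluster 0 DG_ExN cells, 21 were nearer to dentate and 6 nearer to CA1. Cdh9, a cadherin of the mossy fibre synapse, was at 21.7 in cluster 1 DG_ExN cells, 28.2 in cluster 0 DG_ExN cells and 1.34 in CA1_ExN cells. Acan, the proteoglycan aggrecan, was at 13.0 in cluster 1 DG_ExN cells, 8.26 in cluster 0 DG_ExN cells and 1.20 in CA1_ExN cells.

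Some genes of dentate neurons were lower in the 96 cells than in cluster 0 DG_ExN cells. Bcl11b, a transcription factor of granule neurons, was at 42.9 in cluster 1 DG_ExN cells, 90.4 in cluster 0 DG_ExN cells and 55.1 in CA1_ExN cells, and was below cluster 0 DG_ExN cells in 12 of 12 samples. Csf1, a ligand of the microglial receptor Csf1r, was at 10.4 in cluster 1 DG_ExN cells and 33.4 in cluster 0 DG_ExN cells. Dclk3, a kinase gene, was at 50.3 in cluster 1 DG_ExN cells and 101 in cluster 0 DG_ExN cells, and Crtac1, a secreted matrix protein gene, at 34.2 in cluster 1 DG_ExN cells and 80.3 in cluster 0 DG_ExN cells. Adarb2, described above, Car4, Gpc3 and Iqck were the other genes that the naming rule gave in this direction. With early gene counts left out of the total, Adarb2, Csf1 and Gpc3 stayed at least 2-fold lower, while the log2 ratio over cluster 0 DG_ExN cells was -0.95 for Crtac1, -0.80 for Car4, -0.79 for Bcl11b, -0.72 for Iqck and -0.72 for Dclk3.

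Most glutamate receptor and kinase genes, the machinery of excitatory synapses, were lower per 10000 counts in the 96 cells than in each of the other populations. Of the 9 measured, 8 were lower in cluster 1 than in cluster 0 DG_ExN cells, none of them by 2-fold, with a median log2 ratio of -0.41, while 59 of all 100 genes were lower and their median was -0.15. Against CA1_ExN cells 6 of the 9 were lower and 3 higher, 2 of these at least 2-fold, with a median log2 ratio of -0.29 against 0.19 over 114 genes. Gria1, an AMPA receptor subunit, was at 526 in cluster 1 DG_ExN cells, 743 in cluster 0 DG_ExN cells and 699 in CA1_ExN cells, and lower than in cluster 0 DG_ExN cells in 12 of 12 samples. Grin2a, an NMDA receptor subunit, was at 247 in cluster 1 DG_ExN cells, 368 in cluster 0 DG_ExN cells and 384 in CA1_ExN cells. Gria4 was the exception, at 21.2 in cluster 1 DG_ExN cells, 12.2 in cluster 0 DG_ExN cells and 8.03 in CA1_ExN cells. Early gene counts took up part of the total against which these levels are set. When they were left out of the total, 6 of 9 were lower, the median log2 ratio was -0.13, and the log2 ratio of Gria1 was -0.21.

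The share of cells that fell into this set was compared between treatment groups. Per sample, cluster 1 DG_ExN cells made up 1.23%, 0.730%, 1.13% and 1.76% of all cells in Ir-Veh 1, 2, 9 and 12, against 0.824%, 0.634%, 0.550%, 0.590% and 0.547% in Ctl-Veh 2, 3, 8, 11 and 12. The groups overlapped, since Ir-Veh 2 lay below Ctl-Veh 2. The mean was 1.21% ± 0.426 (SD) over the 4 Ir-Veh samples and 0.629% ± 0.114 (SD) over the 5 Ctl-Veh samples, a difference of 0.584 percentage points (two-sided exact permutation test, p = 0.0159, adjusted p = 0.0476 over 3 comparisons). When any 1 of the 9 samples was left out, the difference was 0.401 to 0.746, with adjusted p of 0.0536 to 0.1 in the exact permutation test. Given the p of the other comparisons, the splits that remained were too few for the adjusted p to reach 0.05. The loss of the call in these repeats is therefore no measure of how firm it was. Within the imaging runs that held both groups, the difference was -0.0940 in run 2 and 1.22 in run 12. Each share rested on 5 to 16 cells, and the exact 95% interval of the highest, Ir-Veh 12, was 1.01 to 2.85%.

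The difference was not called for dentate cells chosen by their early genes. In choices made after the data had been seen, cluster 1 DG_ExN cells with an early gene share of 5% or more differed between Ir-Veh and Ctl-Veh by 0.170 percentage points of all cells (exact permutation p = 0.421), and those under 5% by 0.414 (exact permutation p = 0.0635). Of the 45 cells in Ir-Veh 22 had a share of 5% or more, against 23 of 35 in Ctl-Veh. All DG_ExN cells at 5% or more, in any cluster, made up 2.51% ± 1.11 (SD) of the DG_ExN cells over 4 Ir-Veh samples and 2.802% ± 0.878 (SD) over 5 Ctl-Veh samples (exact permutation p = 0.667). Of the 9 cells in Ir-Veh 9, 1 had a share of 5% or more.

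In Ir-Rz the share was 0.207% in run 1 and 0.484% in run 9, both below each of the 4 Ir-Veh samples. The mean was 0.346% ± 0.196 (SD) over the 2 Ir-Rz samples and 1.21% ± 0.426 (SD) over the 4 Ir-Veh samples, a difference of -0.868 percentage points. The exact permutation p was 0.0667, which is the smallest that 2 against 4 samples allow, and the adjusted p was 0.1, so that this design could not reach the threshold. Within runs the difference was -1.02 in run 1 and -0.651 in run 9. The Ir-Rz values rested on 3 and 2 cells. In Ctl-Rz the share was 0.422%, 0.314% and 0.626% in runs 3, 8 and 11, with a mean of 0.454% ± 0.158 (SD, n = 3), against 0.629% ± 0.114 in the 5 Ctl-Veh samples (exact permutation p = 0.125, adjusted p = 0.125). The ranges of Ctl-Rz and Ctl-Veh overlapped.

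**Figure D5:**
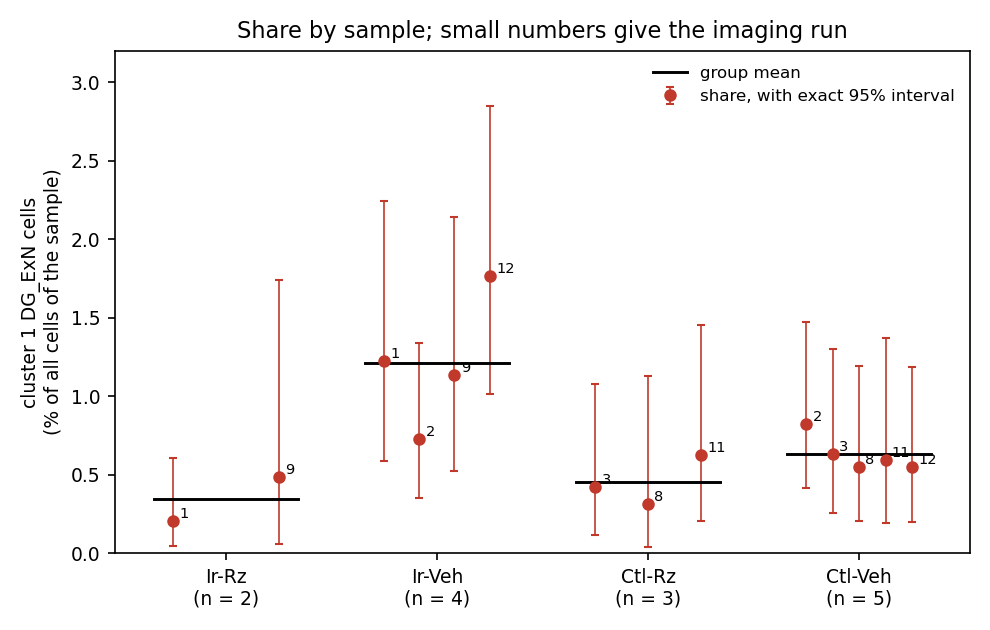
Cluster 1 DG_ExN cells as a percent of all cells of a sample (vertical axis), by group. Points are samples with exact 95% binomial intervals and the number of their imaging run, and lines are group means. Ir-Veh samples lie between 0.730% and 1.76%, Ctl-Veh samples between 0.547% and 0.824%, and the Ir-Rz samples at 0.207% and 0.484%.

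Gene levels within the cells did not separate the treatment groups. Counts were summed over the cluster 1 DG_ExN cells of each sample and 57 genes were tested with edgeR in the 12 samples with 3 or more cells, which left 1 sample in Ir-Rz and 2 in Ctl-Rz, so that Ir-Rz is assumed to vary like the other groups. Between Ir-Veh and Ctl-Veh 0 genes (0%) passed an adjusted p of 0.05, and 0 had an unadjusted p under 0.05. Between Ir-Rz and Ir-Veh 0 genes (0%) passed and 1 had an unadjusted p under 0.05, and between Ctl-Rz and Ctl-Veh 0 genes (0%) passed and 0 had one. DESeq2 called 0 genes in each of the 3 comparisons. In simulated data that gave all genes 1 common spread (dispersion 0.254), genes changed by 4-fold were recovered in 76.2% of cases for Ir-Veh over Ctl-Veh. The figure was 5% for Ir-Rz over Ir-Veh and 20% for Ctl-Rz over Ctl-Veh. Most 4-fold changes would thus have been missed in the comparisons with Ir-Rz and Ctl-Rz. Genes that vary more between samples than this common spread would be recovered less often.

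Arc averaged 241 ± 207 (SD) over 4 Ir-Veh samples, which ran from 17.8 to 506, and 458 ± 207 (SD) over 5 Ctl-Veh samples, which ran from 210 to 715, a log2 fold change of -0.88 that edgeR did not call (adjusted p = 0.949). Bdnf averaged 42.7 ± 16.4 in Ir-Veh and 68.8 ± 52.3 in Ctl-Veh (SD, n = 4 and 5; edgeR adjusted p = 0.949). The gene with the smallest p in that comparison, Car12, a membrane carbonic anhydrase, averaged 66.9 ± 43.4 in Ir-Veh and 25.99 ± 25.4 in Ctl-Veh (edgeR adjusted p = 0.949). The early gene share of counts was 21.2%, 22.3%, 2.14% and 7.93% in Ir-Veh 1, 2, 9 and 12 and 30.9%, 20.1%, 20.5%, 14.6% and 12.7% in Ctl-Veh 2, 3, 8, 11 and 12, with overlapping ranges.

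In the Ir-Rz sample with 3 cells, Arc was at 659 and Bdnf at 80.6, against means of 241 ± 207 and 42.7 ± 16.4 in Ir-Veh (SD, n = 4), with an edgeR adjusted p of 0.786 for Arc and 0.912 for Bdnf. Brinp1, a neuronal gene with the smallest p there, was at 26.9 in that sample and at 142 ± 56.1 in Ir-Veh (edgeR adjusted p = 0.786). Arc averaged 285 ± 34.1 (SD) over 2 Ctl-Rz samples and 458 ± 207 (SD) over 5 Ctl-Veh samples (edgeR adjusted p = 0.900). Kcnd2, a potassium channel gene with the smallest p in that comparison, averaged 84.3 ± 19.2 in Ctl-Rz and 41.0 ± 19.3 in Ctl-Veh (edgeR adjusted p = 0.900).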

How the data were processed

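The authors deposited whole-number transcript counts per segmented cell, raw and not normalized as far as their values show, and a cell table with sample, run, class, Leiden cluster, volume and position. Per the file headers, volume and counts per volume are signal values and x and y are scores on an axis; their units are not stated, and class, cluster and run columns are of other kinds. The deposited counts per volume equalled counts divided by volume times a constant in each sample. Instrument and segmentation are known per the labels; the sources used here give no software versions, genome build, cell filters or basis of the classes and clusters. The count table analysed holds 255 genes, Abi3 to Kcnj8 in the alphabet; genes after these were not analysed here. Unused per-sample columns numbered 0.

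Cells were joined by ID, and no cell was removed. The cell set, lists, rule for named genes and 5% bound were chosen with earlier results of these data known. Lists were hippocampal field identity, immediate early genes, and glutamate receptors and kinases, beside cell type markers; named genes were list members, the 8 largest ratios in a direction among genes with 0.2 or more counts per cell and the same direction in 3 in 4 samples, and Bdnf, Arc and the 3 smallest p per treatment comparison. Of the field identity list 6 genes were measured against cluster 0 DG_ExN cells, 2 of them higher and 4 lower. Cckbr, among the higher, reached the minimum through cluster 1 DG_ExN cells alone. Shares were compared by exact permutation and within-sample differences by exact sign-flip tests in 12 samples; gene sums by edgeR 4.0.16 (quasi-likelihood, TMM, filterByExpr) in R 4.3.3, with Benjamini-Hochberg adjustment, tested on simulated data. DESeq2 1.42.0 was an alternative. Python 3.11.15, scipy 1.17.1 and matplotlib 3.10.9 were used for the rest. Intervals cover counting error only, and no doublet caller was run, since cells were outlined on images. The labels do not state that samples are separate animals, so p-values measure the spread between samples, which may be technical. The numbers in the sample titles are those of the imaging runs in the cell table, and same-run samples deviated together (correlation 0.293 to 0.661 in 7 runs), so they pair the samples. Samples of a group were not copies of each other (chi-square per degree of freedom 32.2 to 124). A gene that the naming rule gave is not reported here.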

Additional observations from a re-analysis of the deposited data

Results flagged for a closer look

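In 34 groups of 4 or 5 samples checked for a sample far from the rest, 1 was found, and chance gives about 1 in 20. It was the level of Adgrl2 in cluster 1 DG_ExN cells of Ir-Veh 12, at 7.45 counts per 10000, against 0 in the other Ir-Veh samples. Adgrl2 had 6 counts in all 96 cells, and CA1_ExN cells had 63.8 to 125.1 per 10000.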

How the results depend on the processing

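With the imaging run as a block (replicate block), genes called within the cells stayed at 0 in all 3 comparisons. The mean within-run difference in the share of cells was 0.561 percentage points for Ir-Veh against Ctl-Veh (exact sign-flip p = 1 with 2 runs), -0.835 between Ir-Rz and Ir-Veh samples, and -0.137 between Ctl-Rz and Ctl-Veh samples, so the block ended the first call; 2 or 3 runs cannot reach the threshold. That call was also lost as a share of cluster 1 cells (1.499 points, exact permutation adjusted p = 0.1). It was lost for cells with an early gene share of 5% or more (0.170) and under 5% (0.414). On leaving out any sample (0.401 to 0.746) it was lost too, but the splits that remained were too few to reach the threshold. The sign turned for all DG_ExN cells at 5% or more (-0.288). The cause was not tested. Counts per cell against cluster 0 DG_ExN cells were not called with a minimum of 5 cells (-0.30) or 1 cell (-0.27) per sample, ranged from -0.44 to -0.29 without each sample, and turned to 0.17 per volume. The mixture weight was 0.000127 without early genes. Of 234 repeats of the main results, 208 kept direction and, where a test was made, side of the threshold, volume results among them. Some could not change, such as the CA1 share of neighbours, which the class label fixes. Calls of 0 genes could hardly change in the comparisons with Ir-Rz and Ctl-Rz, so 208 is no measure of firmness. Of 1258 repeats for named genes, 16 moved by more than the spread between samples and none turned. The small number of cells per sample (2 to 16) limits every treatment comparison.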
